A study of Mus musculus with 48 samples.

Results

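Nras, Hras, Araf, Braf, Map2k1, Map2k2 and Mapk3 are the Ras, Raf, MEK and ERK genes described here, 7 of the 50600 genes listed in the count tables. They were chosen by symbol, as core members of the signalling pathway that drives pancreatic cancer, and the rule used no measured value, although earlier results of these data were known when they were chosen. Each symbol corresponded to 1 Ensembl gene, and all 7 genes passed the filter on low counts that kept 13889 genes for testing.

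The RNA came from mPDAC, a mouse pancreatic ductal adenocarcinoma cell line whose labels give the genetic background FVB/N x C57BL6 and an age of 8 weeks. All groups came from this line. N6L-treated cells received 50 µM N6L, an antagonist of nucleolin, for 48 h, and non-treated cells (NT) served as the control. Cells of both groups were incubated with emetine, which holds ribosomes on mRNA, before lysis, and nuclei and mitochondria were removed by centrifugation. Cytoplasmic RNA was taken from an aliquot of each lysate and polysomal RNA from the pooled polysome fractions of a sucrose gradient of the same lysate. Poly(A)+ RNA was then sequenced. There were 3 NT cultures (numbered 1, 2 and 4) and 3 N6L cultures (1, 2 and 3), which gave 12 libraries of 4 technical replicates each, with 19519911 to 44972333 counts per library. The question was how N6L changed the cytoplasmic mRNA levels and their recruitment into polysomes, relative to the other mRNAs of each library. The paper reports a strong decrease of the polysome peaks and of protein synthesis with N6L. The counts hold no measure of the total mRNA in a fraction. Words such as higher, lower, enriched and unchanged therefore do not describe absolute amounts or absolute recruitment. The labels do not say whether the cultures were grown separately, so the p-values measure only the spread between these samples, which may be technical.

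Ras proteins are small GTPases at the inner face of the plasma membrane that switch on when growth factor receptors promote the exchange of GDP for GTP. GTP-bound Ras recruits Raf kinases, Raf phosphorylates the MEK kinases, and MEK phosphorylates ERK, which then acts on cytoplasmic and nuclear targets. Activating Ras mutations are the hallmark of pancreatic ductal adenocarcinoma, and the growth of these tumours depends on this cascade.

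In the GRCm38 assembly with GENCODE annotation, the Ras GTPase genes were Nras at chr3:103058285-103067914 on the plus strand and Hras at chr7:141189105-141194005 on the minus strand. The Raf kinase genes were Araf at chrX:20797814-20860519 (plus strand) and Braf at chr6:39603237-39725463 (minus strand). Map2k1, which encodes MEK1, lies at chr9:64185770-64253631 (minus strand), Map2k2, which encodes MEK2, at chr10:81105915-81133975 (plus strand), and Mapk3, which encodes ERK1, at chr7:126759601-126765819 (plus strand). All are protein-coding genes. Exons of Braf share 146 bases, 1.05% of their length, with Ndufb2 on the opposite strand, and exons of Araf share 9 bases with Syn1 on the opposite strand. The strand setting of the counting is not given in the sources used here. No other gene's longest transcript matched a member over at least 200 bases at 90% identity or more.

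RefSeq promoter sequences (GRCm38.p6, 250 bases before to 50 after the annotated start) were matched for 6 of the 7 genes, all but Mapk3. They were searched on both strands for GGGCGG (the GC box), CCAAT (the CCAAT box) and TGACGTCA (the cAMP response element, CRE). Among 32851 promoters, 35.7% held GGGCGG, 37.4% held CCAAT and 1.79% held TGACGTCA. GGGCGG was found in the promoters of Nras, Hras, Braf, Map2k1 and Map2k2 and CCAAT in those of Hras, Map2k1 and Araf, while Braf alone of the 6 held TGACGTCA, at 2 places. The windows below lie upstream of the annotated start, where the annotation has no exon. They are shown for the 3 genes whose cytoplasmic values were lower in every N6L library than in any NT library and for Braf, whose polysomal share was the lowest of the set. Capitals mark the motif, and a match describes the letters only.
Nras (chr3:103058205-103058234, plus strand, GC boxes): attgaaatggGGGCGGGGCGGggctggact
Hras (chr7:141194043-141194072, minus strand, CCAAT box): cggaggagttcgaCCAATcacgggccgcct
Map2k2 (chr10:81105885-81105914, plus strand, GC box): cgcctcggttgaGGGCGGgacctcgcagaa
Braf (chr6:39725535-39725564, minus strand, 2 CREs): gaTGACGTCAcgcacccaggTGACGTCAcg
The annotated Braf start was also the only one of the 6 to open with a C followed by at least 4 more pyrimidines, the letters of a 5′TOP mRNA, which 2.51% of all promoters shared.

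Of 7 ductal epithelial markers, 6 were clearly expressed and Epcam was not. The cytokeratin genes Krt8, Krt18 and Krt19 reached 2823 ± 206, 3131 ± 527 and 1623 ± 311 CPM (counts relative to a library size scaled by the trimmed mean of M-values, TMM; SD, n = 3) in NT cytoplasm, and Krt7, Cdh1 and Sox9 were also detected. Epcam was near 0 throughout, with at most 0.301 CPM in any library. The summed levels of 5 fibroblast, 4 leukocyte and 3 endothelial markers stayed at or below 1.22, 2.26 and 1.03 CPM in every library. The 3 endocrine markers had no counts, for which 3 counts in the smallest library would be 0.154 CPM, and Cpa1 of the acinar list had none either, while Cela1 stood at 37.1 ± 6.30 CPM. In the cytoplasm 2 ductal markers changed with N6L: Krt7 fell (log2 change -0.97, SE 0.23, edgeR adjusted p = 0.00829) and Sox9 rose (1.09, SE 0.19, edgeR adjusted p = 0.00230). Ncl, the gene of nucleolin itself, was not past the limit in the cytoplasm (log2 change -0.11, SE 0.31, edgeR adjusted p = 0.812) or in polysomes (-0.80, SE 0.31, edgeR adjusted p = 0.122).

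N6L culture 3 stood apart from the other cultures. The polysome-to-cytoplasm ratios of all tested genes had an SD of 1.04 on the log2 scale in this culture, against 0.687 and 0.532 in N6L cultures 2 and 1 and 0.477 to 0.506 in the NT cultures. Polysomal changes, differences between the fractions with N6L, indices and polysomal ratios of the 7 genes are therefore also given without it. Mitochondrially encoded genes took 0.454% to 0.966% of the counts in NT cytoplasm and 0.121% to 0.242% in N6L cytoplasm, and the part of this difference in the results below was not tested.

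Compared per length, as RPKM (CPM divided by the exon length in kilobases), the ERK gene was the most abundant of the set and Braf the least. Mapk3 stood at 137 ± 8.31 RPKM in NT cytoplasm (SD, n = 3). The MEK genes and Nras followed at almost the same level, with 45.8 ± 10.6 RPKM for Map2k1, 45.6 ± 6.78 for Map2k2 and 45.1 ± 0.829 for Nras, whose ranges overlapped. Hras stood at 29.1 ± 6.87 RPKM, with a range that touched that of Map2k1 but not that of Nras or Map2k2. Araf (7.71 ± 0.475 RPKM) and Braf (1.94 ± 0.320 RPKM) were clearly separated from the Ras and MEK genes and from each other. With the length of the longest protein-coding transcript instead of all exons, the level of Map2k2 became 107 RPKM, above Map2k1 (63.8 RPKM) and Nras (53.8 RPKM), and that of Araf 17.7 RPKM. The order of Mapk3, Hras, Araf and Braf relative to one another was the same with both lengths. In N6L cytoplasm Map2k1, at 51.1 ± 1.31 RPKM, was above Nras (34.7 ± 1.80 RPKM) and Map2k2 (26.9 ± 2.93 RPKM), and the 3 ranges no longer overlapped. With the longest transcript, Map2k2 (63.3 ± 6.91 RPKM) came between Map2k1 (71.1 ± 1.82 RPKM) and Nras (41.4 ± 2.14 RPKM).

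**Figure D1:**
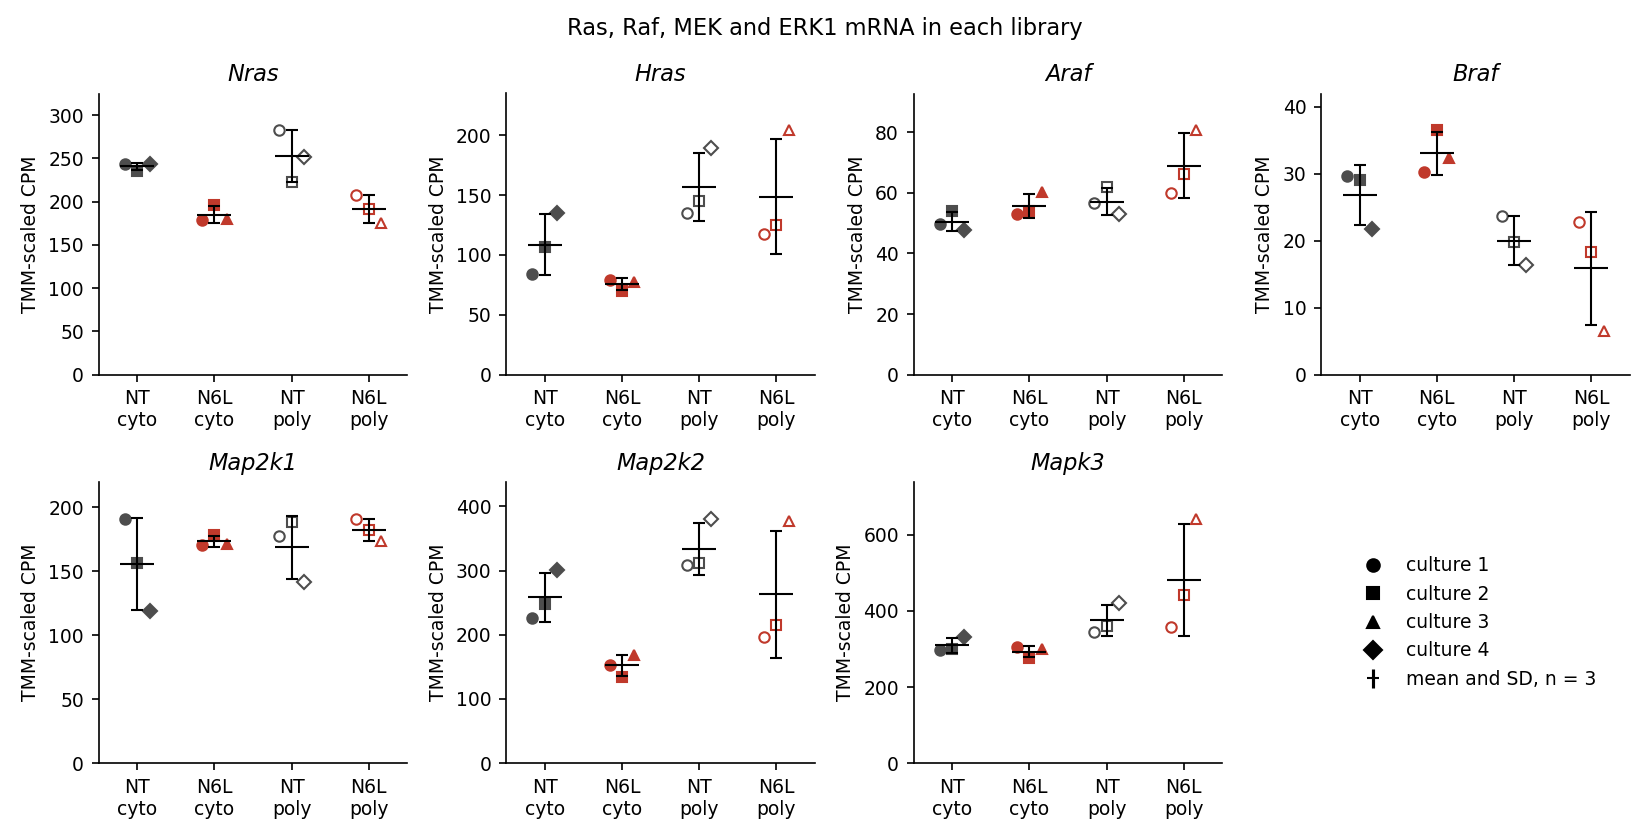
TMM-scaled CPM of the 7 genes in each library (y axis, linear from 0) for NT and N6L cytoplasm (filled symbols) and polysomes (open symbols), with the mean and SD of 3 cultures; symbol shapes mark the culture number. Map2k2, Nras and Hras are lower in all 3 N6L cytoplasmic libraries than in any NT one, and among the polysomal libraries N6L culture 3 is the highest for Hras and Mapk3 and the lowest for Braf.

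In the cytoplasm, Map2k2 mRNA fell with N6L, and no other gene of the set passed the limit of 0.05 on the adjusted p. This was 1 of 7 genes, against 28.3% of all genes tested (14.5% higher and 13.8% lower). The values of 4 of the 7 genes did not overlap between the treatments, lower with N6L for Nras, Hras and Map2k2 and higher for Braf, against 54.9% of all genes. The median log2 change of the set was -0.08 (-0.15 with an offset for length and GC content), beside 0.04 for all genes.

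Both Ras GTPase genes had lower cytoplasmic values in all N6L cultures than in any NT culture, but neither passed the limit. Nras was measured at 243, 236 and 243 CPM in NT cultures 1, 2 and 4 and at 179, 196 and 179.6 CPM in N6L cultures 1, 2 and 3. The NT values lay close together and every N6L value lay well below them. The log2 change was -0.38 (SE 0.14, 95% interval -0.67 to -0.09, edgeR adjusted p = 0.0504). Its adjusted p was under the limit with DESeq2 (0.00986) and with size factors of the relative log expression type in edgeR (0.0377). Hras stood at 84.2, 107 and 135 CPM in the NT cultures and at 78.7, 69.7 and 77.8 CPM in the N6L cultures. The NT cultures were widely spread, and the lowest of them lay just above the highest N6L culture. The log2 change of Hras was -0.53 (SE 0.23, 95% interval -1.01 to -0.04, edgeR adjusted p = 0.0910).

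Neither Raf kinase passed the limit in the cytoplasm. Araf, which has the weakest kinase activity of the family, stood at 49.8, 53.8 and 47.7 CPM in NT and at 52.9, 53.9 and 60.2 CPM in N6L cultures, and the groups overlapped. Its log2 change was 0.14 (SE 0.15, edgeR adjusted p = 0.483). Braf, the strongest MEK activator among the Raf kinases, was measured at 29.7, 29.1 and 21.7 CPM in NT and at 30.2, 36.5 and 32.4 CPM in N6L cultures. All N6L values were higher than the NT values, but the gap was smaller than the spread within either group, and the log2 change of 0.30 had an SE of 0.32 (edgeR adjusted p = 0.493).

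Of the MEK genes, Map2k2 passed the limit in the cytoplasm and Map2k1 did not. Map2k2 stood at 226, 247 and 301 CPM in NT cultures 1, 2 and 4 and at 154, 135 and 168 CPM in N6L cultures 1, 2 and 3, so that the highest N6L value lay well under the lowest NT value. Map2k2 fell 1.70-fold (log2 change -0.76, SE 0.22, 95% interval -1.24 to -0.29, edgeR adjusted p = 0.0212). The direction held with every culture left out in turn, but the edgeR adjusted p was above the limit without NT culture 2 (0.0508), NT culture 4 (0.0731) or N6L culture 2 (0.0870), fits with fewer samples. Map2k1, whose product shares the role of MEK2, ranged from 119 to 191 CPM in NT and from 171 to 178 CPM in N6L cultures. The N6L values lay inside the NT range, and the log2 change was 0.16 (SE 0.17, 95% interval -0.21 to 0.52, edgeR adjusted p = 0.508). Mapk3, the ERK gene and the end of the cascade, stood at 298, 299 and 331 CPM in NT and at 304, 277 and 299 CPM in N6L cultures. Of the N6L values, 2 lay inside the NT range and 1 below it, with a log2 change of -0.08 (SE 0.19, 95% interval -0.48 to 0.32, edgeR adjusted p = 0.773); the sign turned positive (0.07) when libraries were scaled by their totals alone, which moved the median of all genes from 0.04 to 0.19.

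**Figure D2:**
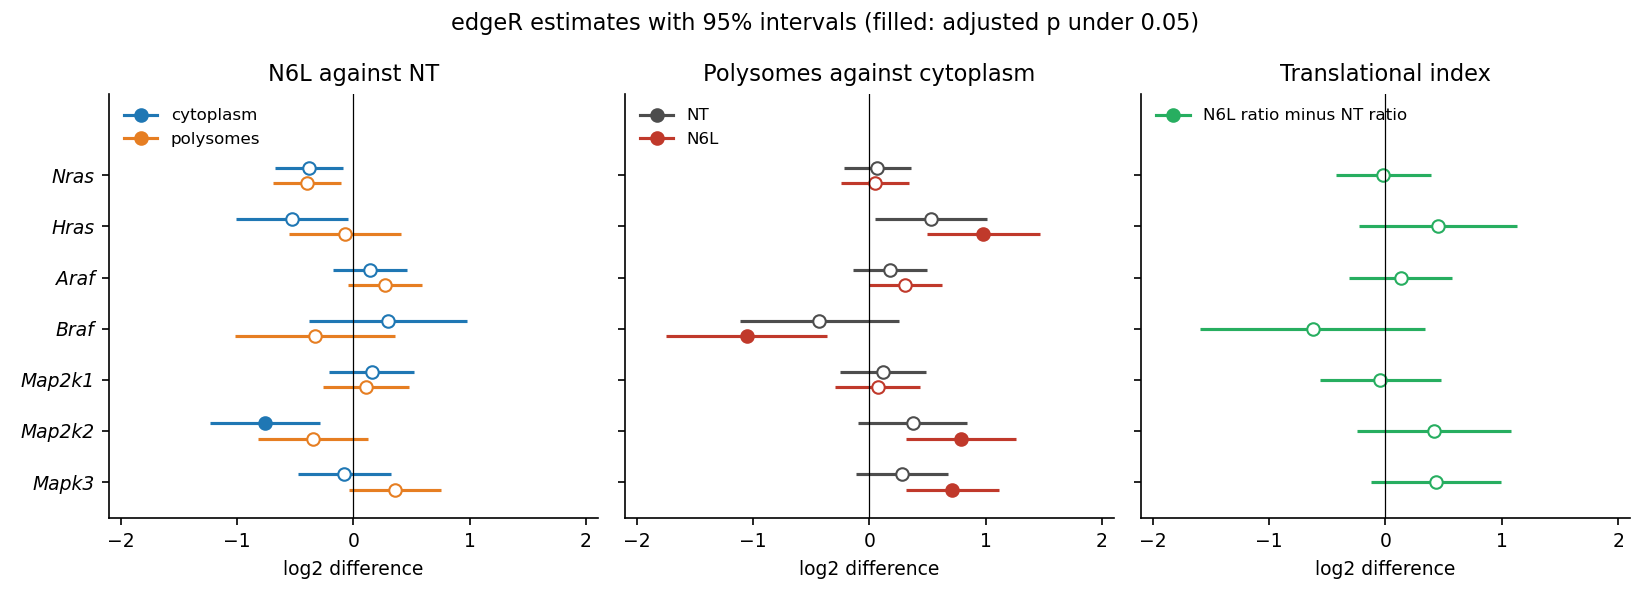
Log2 differences of the 7 genes with 95% intervals from the edgeR fit (x axis) for N6L against NT in both fractions, for polysomes against cytoplasm in both treatments, and for the translational index; filled points have an adjusted p under 0.05. The filled points are Map2k2 in the cytoplasm (-0.76) and Hras, Map2k2, Mapk3 and Braf for polysomes against cytoplasm in N6L-treated cells.

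In the polysomal RNA, 0 of 7 genes passed the limit between N6L and NT with edgeR, against 9.67% of all genes (6.01% higher and 3.66% lower), and 1 had an unadjusted p under 0.05, against 26.5% of all genes. That gene was Nras, which DESeq2 called (log2 change -0.42, adjusted p = 0.0192). Nras stood at 282, 223 and 252 CPM in NT polysomes and at 208, 192 and 175 CPM in N6L polysomes. It was the only gene of the set whose polysomal values did not overlap between the treatments, against 25.6% of all genes. Its log2 change in polysomes was -0.40 (SE 0.14, edgeR adjusted p = 0.0809), beside the -0.38 in the cytoplasm, and -0.34 (edgeR adjusted p = 0.162) without N6L culture 3.

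The polysomal values of the other 6 genes overlapped between the treatments, and for Hras, Map2k2, Mapk3 and Braf N6L culture 3 lay far from the other N6L cultures. Hras stood at 117, 125 and 204 CPM in N6L polysomes and at 135, 145 and 189 CPM in NT polysomes, with a log2 change of -0.08 (SE 0.22, edgeR adjusted p = 0.865), or -0.37 (edgeR adjusted p = 0.253) without N6L culture 3. Map2k2 stood at 197, 215 and 376 CPM in N6L polysomes and at 309, 312 and 381 CPM in NT polysomes. Culture 3 was thus the only N6L culture inside the NT range, and the log2 change of Map2k2 was -0.35 (SE 0.22, edgeR adjusted p = 0.337) with all cultures and -0.70 (edgeR adjusted p = 0.0290) without N6L culture 3. Mapk3 stood at 357, 443 and 642 CPM in N6L polysomes and at 344, 362 and 421 CPM in NT polysomes. Here too culture 3 was the highest, and the log2 change was 0.36 (SE 0.19, edgeR adjusted p = 0.239) with all cultures and 0.09 without it. Braf, at 22.8, 18.3 and 6.50 CPM in N6L polysomes and 23.7, 19.8 and 16.4 CPM in NT polysomes, had its lowest value in culture 3, from 159 counts. The log2 change of Braf was -0.33 (SE 0.32, edgeR adjusted p = 0.553) and became 0.04 without that culture. Araf (59.9, 66.3 and 80.7 CPM with N6L, 56.7, 61.8 and 52.9 CPM in NT) and Map2k1 (191, 182 and 173 CPM with N6L, 177, 188 and 141 CPM in NT) overlapped between the treatments, with log2 changes of 0.27 and 0.11 (edgeR adjusted p = 0.260 and 0.727), or 0.14 and 0.15 without N6L culture 3.

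The recruitment of each mRNA into polysomes was then followed by the comparison of polysomes with cytoplasm within each treatment. In NT cells 0 of 7 genes passed the limit with edgeR, against 0.209% of all genes. Hras alone had an unadjusted p under 0.05, which 13.4% of all genes had, with a log2 difference of 0.53 (SE 0.23, edgeR adjusted p = 0.336). Map2k2 (0.37, SE 0.22) and Mapk3 (0.28, SE 0.19) were higher in all NT polysomal libraries than in any NT cytoplasmic library, 2 of 7 genes against 22.4% of all genes without overlap. DESeq2 likewise called 0 of the 7 genes in NT cells, and so did the fit with the culture as a block, which called 203 genes in all against 29 without it.

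Nras, Map2k1 and Araf did not pass the limit between polysomes and cytoplasm of N6L-treated cells. Relative to the other mRNAs of each library, Hras, Map2k2 and Mapk3 were enriched in the polysomes there and Braf was depleted from them. These were 4 of 7 genes, against 39.0% of all genes (18.4% higher and 20.6% lower), and the values of the same 4 genes did not overlap between the fractions, against 56.9% of all genes. The log2 difference between polysomes and cytoplasm was 0.98 for Hras (SE 0.23, edgeR adjusted p = 0.00704), 0.79 for Map2k2 (SE 0.22, edgeR adjusted p = 0.0144) and 0.71 for Mapk3 (SE 0.19, edgeR adjusted p = 0.0110). It was -1.06 for Braf (SE 0.32, edgeR adjusted p = 0.0205), which corresponds to a 2.08-fold lower polysomal level. Nras (0.05, SE 0.14) and Map2k1 (0.07, SE 0.17) stayed near 0. Araf had a difference of 0.31 (SE 0.15, edgeR adjusted p = 0.108) and was called when the culture, from which both fractions came, was a block in the fit (0.30, edgeR adjusted p = 0.0349).

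The values per culture show how far these calls rest on N6L culture 3. Hras had log2 polysome-to-cytoplasm ratios of 0.68, 0.45 and 0.48 in NT cultures 1, 2 and 4 and of 0.57, 0.84 and 1.39 in N6L cultures 1, 2 and 3. Map2k2 had ratios of 0.45, 0.34 and 0.34 in NT and of 0.36, 0.67 and 1.16 in N6L cultures, and Mapk3 of 0.20, 0.27 and 0.35 in NT and of 0.23, 0.68 and 1.10 in N6L cultures. Braf went the other way, with -0.32, -0.55 and -0.41 in NT and -0.41, -1.0 and -2.30 in N6L cultures. For these 4 genes N6L culture 1 lay within the NT range, culture 2 beyond that range and culture 3 furthest out. Without culture 3, 0 of the 7 genes passed the limit in N6L-treated cells, with log2 differences of 0.71 for Hras, 0.52 for Map2k2, 0.46 for Mapk3 and -0.70 for Braf (edgeR adjusted p = 0.0560, 0.0776, 0.0887 and 0.0560), and of 0.09 for Nras, 0.10 for Map2k1 and 0.24 for Araf. Without culture 2, Hras was the 1 gene that still passed. With 1 culture of either treatment left out, the differences ranged from 0.71 to 1.16 for Hras and from 0.52 to 0.96 for Map2k2. Those of Mapk3 ranged from 0.46 to 0.91 and those of Braf from -1.47 to -0.70. Without N6L culture 2 or 3 the calls among all genes also fell, from 5415 to as few as 1153. The loss of calls was thus not confined to the set.

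**Figure D3:**
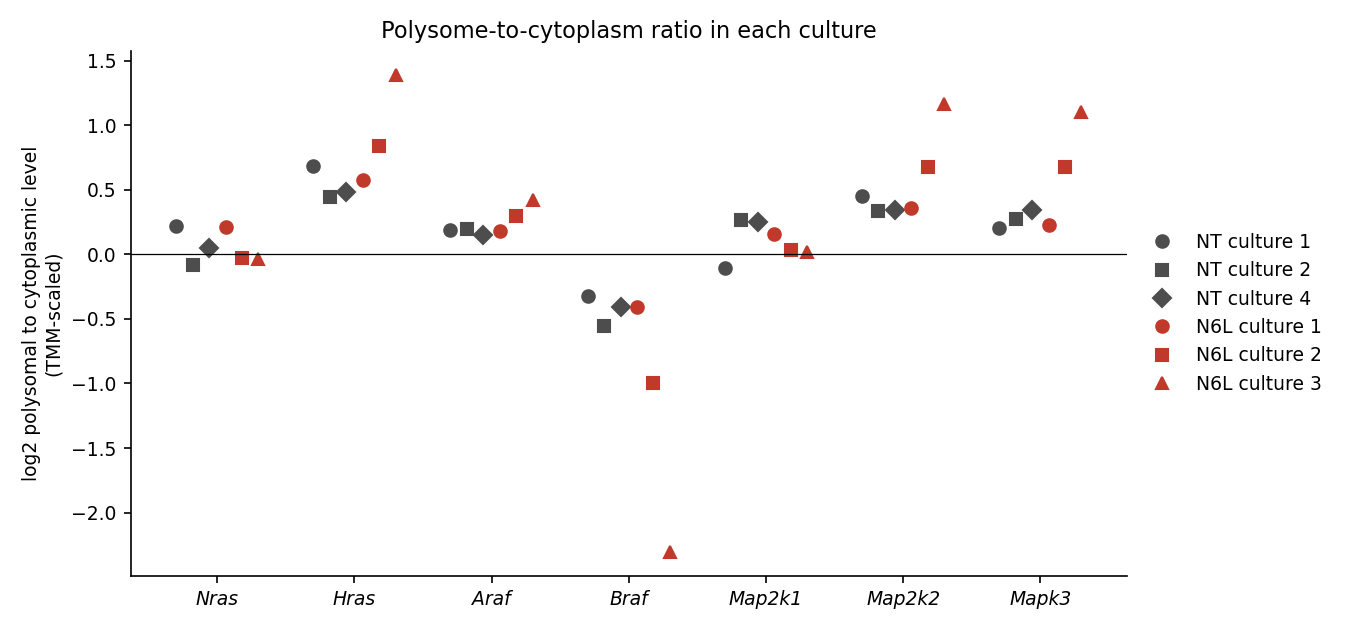
Log2 ratio of polysomal to cytoplasmic level (y axis, TMM-scaled) of the 7 genes in each of the 3 NT cultures (grey) and 3 N6L cultures (red); each point is 1 culture. N6L culture 3 (triangles) is the extreme point for Hras (1.39), Map2k2 (1.16), Mapk3 (1.10) and Braf (-2.30), while N6L culture 1 lies with the NT cultures.

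The translational index, the log2 difference between the polysome-to-cytoplasm ratios of N6L-treated and NT cells, passed the limit for 0 of 7 genes, and 0 had an unadjusted p under 0.05. Among all genes it passed the limit for 0% as well, and 1074 genes (7.73%) had an unadjusted p under 0.05. DESeq2 also called 0. These counts, and the SEs and intervals below, come from fits that ignore the pairing of the fractions within a culture. With the culture as a block in edgeR, 0 genes were again called and 2996 had an unadjusted p under 0.05. The paper reports genes with a changed index from DESeq2, after selecting genes and applying a cut-off on the index, which was not repeated here. The index was 0.45 for Hras (SE 0.32, 95% interval -0.23 to 1.13), 0.43 for Mapk3 (SE 0.26, -0.13 to 1.00), 0.42 for Map2k2 (SE 0.31, -0.25 to 1.08) and -0.63 for Braf (SE 0.45, -1.60 to 0.34). Nras (-0.02, SE 0.19), Map2k1 (-0.05, SE 0.24) and Araf (0.13, SE 0.21) lay near 0. Without N6L culture 3 the index moved towards 0 for Hras, Mapk3, Map2k2 and Braf, to 0.18, 0.18, 0.14 and -0.27, and it was 0.02, -0.02 and 0.06 for Nras, Map2k1 and Araf. The smallest edgeR adjusted p of the set was 0.555, for Mapk3, and the ratios of all 7 genes overlapped between the treatments, against 29.7% of all genes without overlap. The call of 4 genes in N6L-treated cells and of 0 in NT cells is thus not shown to be a difference between the treatments.

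Transcript length and base composition differed widely within the set, and both moved with the translational index across all genes. The GC content of the longest protein-coding transcript was 42.6% for both Nras and Braf, 45.4% for Araf, 51.2% for Map2k1, 55.2% for Hras, 57.6% for Mapk3 and 60.4% for Map2k2. Braf, with 13862 bases of exon, was longer than 96.9% of the genes tested. Across all genes, the median translational index was -0.25 in the quintile with the lowest GC content and 0.31 in the quintile with the highest, and 0.35 in the shortest and -0.40 in the longest quintile. With an offset for length and GC content in the fit, Braf (-0.09, edgeR adjusted p = 0.733) and Mapk3 (0.11, edgeR adjusted p = 0.423) were no longer called between polysomes and cytoplasm of N6L-treated cells. Nras (0.59, edgeR adjusted p = 0.00708) and Araf (0.88, edgeR adjusted p = 0.00985) were called in their place. Hras and Map2k2 still passed, and the lower of their differences was 0.56, against 0.98 (Hras) and 0.79 (Map2k2) without the offset. In the cytoplasm the offset left Map2k2 lower (-0.73, edgeR adjusted p = 0.00226) and brought Nras under the limit (-0.56, edgeR adjusted p = 0.00436).

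Ratios between close relatives in the same library do not depend on the scaling of the libraries. The Map2k1/Map2k2 ratio per length was 1.41, 1.06 and 0.659 in the cytoplasm of NT cultures 1, 2 and 4 and 1.86, 2.21 and 1.70 in that of N6L cultures 1, 2 and 3. Every N6L culture thus held more Map2k1 relative to Map2k2 than any NT culture, by 0.94 on the log2 scale on average (0.93 ± 0.19 against -0.01 ± 0.55, SD, n = 3). The exact two-sided permutation test gave p = 0.1, the smallest that 3 cultures against 3 allow, and 0.6 after Benjamini-Hochberg adjustment over the 6 ratios compared. In polysomes the groups overlapped (difference 0.52, exact permutation p = 0.3), where N6L culture 3 was the lowest of the 3 N6L values. Without it the difference was 0.85 and both remaining N6L values lay above all NT values.
The Nras/Hras ratio per length was 2.02, 1.55 and 1.26 in NT cytoplasm and 1.59, 1.97 and 1.62 in N6L cytoplasm, a difference of 0.12 on the log2 scale between overlapping groups (exact permutation p = 0.5). In polysomes it was 0.600 in N6L culture 3 and 0.932 to 1.46 in the other cultures (difference -0.29, exact permutation p = 0.6). Without NT culture 4 the cytoplasmic difference was -0.04, and without N6L culture 3 the polysomal one was 0.03. Braf mRNA was less abundant per length than Araf mRNA in every library. The Braf/Araf ratio was 0.281, 0.255 and 0.215 in NT cytoplasm and 0.270, 0.319 and 0.254 in N6L cytoplasm, and in polysomes it ranged from 0.146 to 0.198 in NT cultures and was 0.179, 0.130 and 0.0380 in N6L cultures. The log2 differences were 0.17 in the cytoplasm (exact permutation p = 0.5) and -0.77 in polysomes (exact permutation p = 0.4), the latter -0.10 without N6L culture 3.

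**Figure D4:**
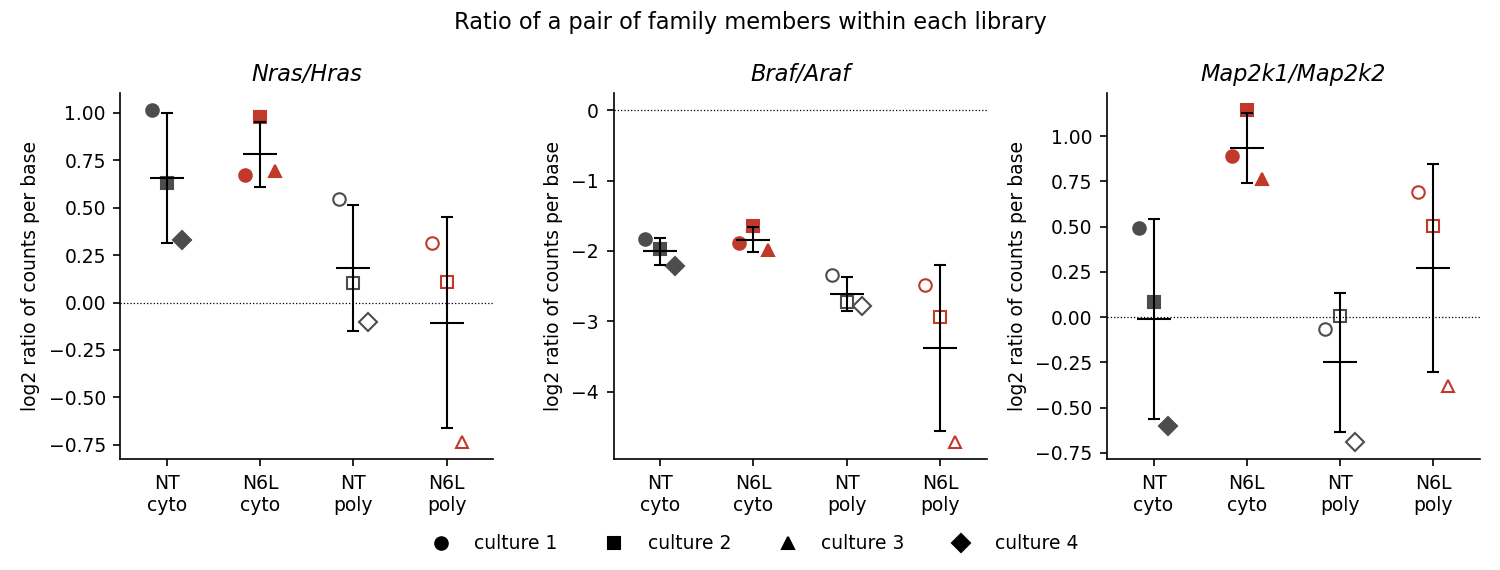
Log2 ratio of counts per exonic base (y axis) for Nras/Hras, Braf/Araf and Map2k1/Map2k2 in each library, with the mean and SD of 3 cultures; filled symbols are cytoplasm and open symbols polysomes, grey for NT and red for N6L. The Map2k1/Map2k2 ratios of the 3 N6L cytoplasmic libraries lie above those of all NT cytoplasmic libraries, and the other groups overlap between treatments.

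The genes also varied together over the 12 libraries, which share 6 lysates, 2 fractions and 2 treatments, so that the correlations below only describe these libraries. Log2 CPM of Hras and Map2k2 had a Pearson r of 0.925, and Hras and Mapk3 of 0.827. Braf ran opposite to them, with r = -0.978 against Mapk3 and -0.863 against Hras. Map2k1 stood apart from the rest, with no r above 0.437 in size. Of the 8949 genes averaging 10 CPM or more, the closest patterns were those of Rpp30 and Cops5 for Nras (r = 0.992 and 0.973), Mecr and Pycrl for Hras (0.991 and 0.990), Pqlc1 and Stxbp2 for Araf (0.985 and 0.980) and Gmps and Zfp111 for Braf (0.991 and 0.990). They were Zfand2a and Mto1 for Map2k1 (0.924 and 0.918), Josd2 and Mrpl2 for Map2k2 (0.997 and 0.993) and Zfp707 and Muc1 for Mapk3 (0.987 and 0.986). Map2k1 thus had the loosest match of the 7 genes.

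The wider pathway around the 7 genes was followed in 8 lists of 67 genes, all of them tested. In the cytoplasm 8 of these genes rose and 7 fell with N6L, beside the 14.5% higher and 13.8% lower (28.3% in all) among all genes tested, and the median log2 change was 0.08, beside 0.04 for all genes.

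Among the genes that set the Ras switch, 1 of 7 activators and 2 of 6 GTPase-activating proteins rose in the cytoplasm with edgeR and 0 fell, against 14.5% and 13.8% of all genes; DESeq2 called 1 and 3 higher and 0 lower. The activator was the adaptor gene Gab1, which rose from 1.11 ± 0.447 to 2.67 ± 0.744 CPM (log2 change 1.27, SE 0.32, edgeR adjusted p = 0.0120). The log2 changes of the 7 ranged from 0.08 to 1.27, with a median of 0.40 (0.25 with an offset for length and GC content) beside 0.04 for all genes. The exchange factors Sos1 and Sos2, which load Ras with GTP, were lower in polysomes than in cytoplasm of N6L-treated cells (-1.25 and -1.19, edgeR adjusted p = 0.00503 and 0.00750). In NT cells they stood at -0.70 and -0.74 (edgeR adjusted p = 0.256 and 0.286). With the offset for length and GC content in N6L-treated cells, Sos1 was no longer called (-0.28, edgeR adjusted p = 0.12) and Sos2 stood at -0.52 (edgeR adjusted p = 0.0365). Of the GTPase-activating proteins, which switch Ras off, Rasa3 rose from 118 ± 19.4 to 190.3 ± 11 CPM (log2 change 0.69, SE 0.18, edgeR adjusted p = 0.0128) and Rasa2 rose by 0.68 (SE 0.22, edgeR adjusted p = 0.0329) in the cytoplasm. The 4 others were not called by edgeR with all cultures, and DESeq2 also called Rasa1 (0.70, adjusted p = 0.0486). Without N6L culture 3 edgeR called 4 of the 6 genes higher, with Rasa1 (0.75, edgeR adjusted p = 0.0215) and Nf1 (0.56, edgeR adjusted p = 0.0457) as well. The median of the list was 0.61, or 0.22 with the offset, under which Rasa2 was not called (0.20, edgeR adjusted p = 0.154). In N6L-treated cells Rasa1 (-1.64), Nf1 (-1.28), Rasal2 (-1.28) and Rasa2 (-1.09) were lower in polysomes than in cytoplasm, each with an edgeR adjusted p of at most 0.00769. These were 4 of 6 genes, against 20.6% of all genes lower. The median of the list was -1.19, beside 0.03 for all genes, or -0.35 with the offset, which left 1 of these 4 calls. In NT cells the median was already -0.51, beside 0.03 for all genes. Rasa1 stood there at -1.06, Nf1 at -0.51, Rasal2 at -0.55 and Rasa2 at -0.51. Of the 6 genes edgeR called 0 in NT cells, and DESeq2 called Rasa1 lower (-1.05, adjusted p = 0.0257).

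Among the relatives of Ras and the enzymes that modify it, 2 of 8 genes in each list fell and 0 rose in the cytoplasm with edgeR and with DESeq2, against 13.8% and 14.5% of all genes. Of the 8 other GTPases of the Ras subfamily, Rala, which acts in exocytosis, fell from 121 ± 12.4 to 74.1 ± 2.02 CPM (log2 change -0.71, SE 0.14, edgeR adjusted p = 0.00414). Mras fell by 0.57 (SE 0.20), with an edgeR adjusted p of 0.05 just under the limit. Without N6L culture 3 its change was -0.56, no longer called (edgeR adjusted p = 0.0640). Rala fell by 0.69 in polysomes too (edgeR adjusted p = 0.0102). Between polysomes and cytoplasm of N6L-treated cells, 4 of these 8 GTPase genes were higher, against 18.4% of all genes, and 0 lower with edgeR and DESeq2. They were Rras (0.85), Rit1 (0.79), Ralb (0.41) and Rras2 (0.37), and the median of the list was 0.38. With the offset Rras was no longer called (0.07), Rit1 stood at 0.42 and the median was 0.24; without N6L culture 3 the call of Rit1 alone remained and the median was also 0.24. Of 8 genes for lipid modification and trafficking of Ras, Lypla1, which encodes an acyl-protein thioesterase, fell from 53.0 ± 16.9 to 25.7 ± 4.38 CPM (log2 change -1.05, SE 0.23, edgeR adjusted p = 0.00606). Pde6d, whose product shuttles farnesylated Ras, fell in the cytoplasm (-0.64, SE 0.18, edgeR adjusted p = 0.0199) and was higher in polysomes than in cytoplasm of N6L-treated cells (0.84, edgeR adjusted p = 0.00589, or 0.44 with the offset).

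Scaffolds and downstream kinases gave calls in both directions. Of 9 scaffolds and regulators, Ksr1, a scaffold of Raf, MEK and ERK, rose (0.47, SE 0.15, edgeR adjusted p = 0.0314), though not with the offset (0.37, edgeR adjusted p = 0.0542). Lamtor2, part of the late endosomal complex that anchors MEK, fell from 133 ± 28.4 to 75 ± 6.65 CPM (log2 change -0.83, SE 0.21, edgeR adjusted p = 0.0115), or by 0.35 on the log2 scale with the offset (edgeR adjusted p = 0.0364). Without N6L culture 3, edgeR called 3 of the 9 genes higher and 2 lower in the cytoplasm. The calls added were Shoc2 (0.58), Iqgap1 (0.68) and Pebp1 (-0.57), with edgeR adjusted p = 0.0182, 0.0179 and 0.0375. The Raf inhibitor gene Pebp1 was higher in polysomes than in cytoplasm of N6L-treated cells (1.09, edgeR adjusted p = 0.00673), and less so without N6L culture 3 (0.70, edgeR adjusted p = 0.0420) or with the offset (0.40, edgeR adjusted p = 0.0385). In the same list and comparison Iqgap1, a scaffold (-1.10, edgeR adjusted p = 0.00681), and Shoc2, which helps to activate Raf (-0.69, edgeR adjusted p = 0.0161), were lower, neither of them called with the offset (-0.37 and -0.07, edgeR adjusted p = 0.0837 and 0.667). Of 7 kinases that ERK activates, Rps6ka5 rose from 4.2 ± 2.21 to 9.56 ± 0.781 CPM (log2 change 1.17, SE 0.32, edgeR adjusted p = 0.0177, or 0.77 with the offset), and its relative Rps6ka4 fell (-0.78, SE 0.21, edgeR adjusted p = 0.0162).

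Of 10 transcripts often read as a sign of ERK activity, edgeR called 2 higher and 0 lower in the cytoplasm, against 14.5% and 13.8% of all genes, with a median of 0.15 (0.28 with the offset and 0.076 without N6L culture 3). Ccnd1, the cyclin D1 gene, was called lower by DESeq2 (-0.33, adjusted p = 0.0395) and with the offset (-0.37, edgeR adjusted p = 0.0221), and with the offset Spry2, whose product restrains Ras signalling, was called higher (0.65, edgeR adjusted p = 0.0237). Dusp4, which encodes a phosphatase of nuclear ERK, rose from 52.0 ± 18.5 to 176 ± 35.9 CPM in the cytoplasm (log2 change 1.76, SE 0.29, edgeR adjusted p = 0.00179), the largest change of the 67 genes, and by 1.17 in polysomes (edgeR adjusted p = 0.0218). The ephrin receptor gene Epha4 rose in the cytoplasm from 7.91 ± 0.390 to 16.1 ± 1.46 CPM (log2 change 1.02, SE 0.23, edgeR adjusted p = 0.00651). In polysomes its change was 0.72 (edgeR adjusted p = 0.0680), which DESeq2 called (0.71, adjusted p = 0.0360). Without N6L culture 3 the polysomal change was 0.98 and called by edgeR (edgeR adjusted p = 0.0109). Epha4 was lower in polysomes than in cytoplasm of N6L-treated cells (-1.36, edgeR adjusted p = 0.00427, or -0.77 with the offset). In NT cells it was lower as well, without overlap (-1.06, edgeR adjusted p = 0.101). There it was called by DESeq2 (-1.05, adjusted p = 0.00487) and with the offset (-0.83, edgeR adjusted p = 0.0346). Of 12 kinases of the parallel JNK, p38 and ERK5 cascades, the p38 gene Mapk14 rose from 106 ± 2.77 to 144 ± 8.95 CPM (log2 change 0.44, SE 0.13, edgeR adjusted p = 0.0194) and the p38 gene Mapk11 fell (-0.76, SE 0.22, edgeR adjusted p = 0.0208). The median of this list was -0.11, beside the -0.08 of the Ras, Raf, MEK and ERK genes.

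In polysomes 4 of the 67 genes rose (Dusp4, Gab1, Mknk2 and Shc1) and 2 fell (Rala and Lypla1), against 9.67% of all genes called. Without N6L culture 3 the call remained for 2 of these 6, Rala (-0.62) and Dusp4 (1.25). Without that culture edgeR also called Epha4 higher (0.98, edgeR adjusted p = 0.0109) and Rps6ka4 lower (-0.74, edgeR adjusted p = 0.0423). Gab1 then stood at 1.19 and Lypla1 at -0.70, against 1.11 and -0.78 with all cultures (edgeR adjusted p without culture 3 = 0.0736 and 0.0868). Mknk2 stood at 0.42 and Shc1 at 0.40, against 0.62 and 0.58 (edgeR adjusted p without culture 3 = 0.116 and 0.0935). Between polysomes and cytoplasm of N6L-treated cells 14 were higher and 13 lower, against 18.4% and 20.6% of all genes (39.0% in all), and the call remained for 13 of these 27 genes without N6L culture 3 and for 12 with the offset, under which Mapk8 turned from lower (-0.63, edgeR adjusted p = 0.0475) to higher (0.44, edgeR adjusted p = 0.0161). Without culture 3 it remained for Sos1 (-1.04), Sos2 (-0.96), Rasa1 (-1.35), Nf1 (-1.0), Rasal2 (-0.93), Rasa2 (-0.93), Pde6d (0.66), Pebp1 (0.70), Iqgap1 (-0.84), Lamtor2 (0.84), Rit1 (0.66), Rps6ka3 (-1.0) and Epha4 (-1.13). The 14 genes without a call kept their direction, and their log2 differences without culture 3 are given in parentheses. Higher in polysomes were Shc1 (0.26), Rras (0.65), Rras2 (0.28), Ralb (0.28), Rce1 (0.49), Pea15a (0.40), Rps6ka4 (0.30), Etv4 (0.37), Map2k5 (0.35) and Mapk12 (0.42). Lower were Shoc2 (-0.52), Rps6ka5 (-0.70), Map2k4 (-0.51) and Mapk8 (-0.43). With the offset and all cultures, Lamtor2 moved from 0.94 to 0.22 (edgeR adjusted p = 0.196) and was not called. Rps6ka3 moved from -1.18 to -0.30 (edgeR adjusted p = 0.0417). In NT cells 0 of the 67 genes passed the limit between the fractions with edgeR, against 0.209% of all genes. An unadjusted p under 0.05 was found for 10 of the 67, against 13.4% of all genes. DESeq2 called 2, Rasa1 (-1.05, adjusted p = 0.0257) and Epha4 (-1.05, adjusted p = 0.00487), which were lower in polysomes. The translational index passed the limit for 0 of the 67 genes with edgeR and with DESeq2, against 0% of all genes. An unadjusted p under 0.05 with edgeR was found for 3 of the 67, against 7.73% of all genes.

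**Figure D5:**
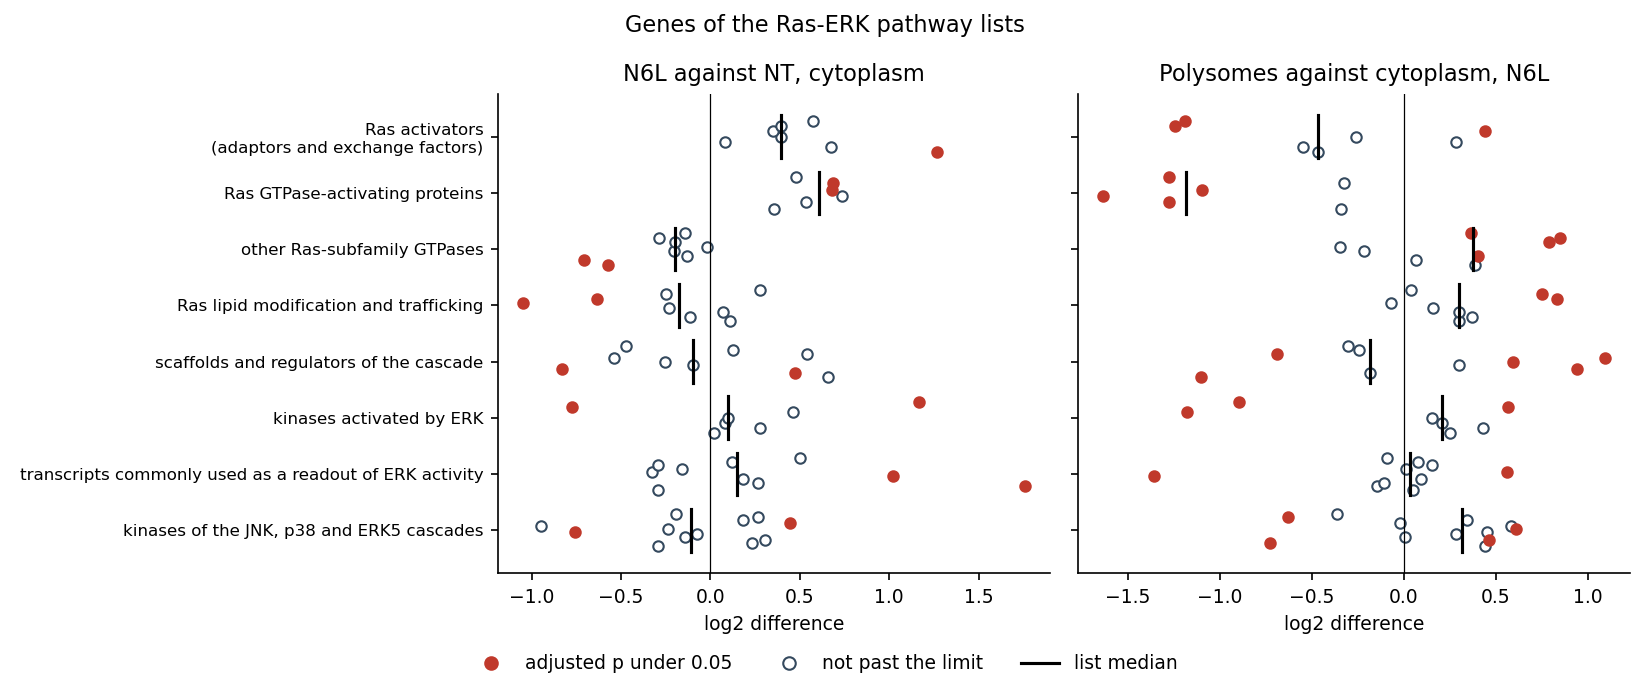
Log2 differences (x axis) of the 67 pathway genes by list for N6L against NT in the cytoplasm and for polysomes against cytoplasm in N6L-treated cells; each point is 1 gene, red points have an adjusted p under 0.05 and black bars mark the list median. The GTPase-activating proteins lie right of 0 in the cytoplasm (median 0.61) and left of 0 in the other panel (median -1.19), and Dusp4 is the rightmost point in the cytoplasm (1.76).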

How the data were processed

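Cytoplasmic and polysomal poly(A)+ RNA of 6 mPDAC cultures was sequenced, which gave 48 count files. The deposited values are raw counts per gene that the authors made with STAR and HTSeq-count (0.5.3) without normalization, on mm10 per the labels' processing notes. The sources used here do not name the annotation release, the strand setting or the handling of multi-mapped reads. All files listed the same 50600 genes, of which GENCODE vM21 (GRCm38) held 50376 and gave symbols, lengths and GC content. Groups and culture numbers came from sample titles. For 3 technical replicates of N6L culture 2 cytoplasm the title and the description disagree on the number, and the title was followed. Technical replicates differed by little more than counting error (chi-square divided by its degrees of freedom 1.02 to 1.04) and were summed.

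After filtering (filterByExpr, 13889 genes) and TMM scaling, all 12 libraries entered 1 model in edgeR 4.0.16 under R 4.3.3, with a mean for every combination of fraction and treatment and no block. Contrasts were tested with the quasi-likelihood F test (glmQLFTest), and Benjamini-Hochberg adjusted p-values over all genes under 0.05 were called. The SE is the absolute log2 change divided by the square root of the F statistic. RPKM used TMM-scaled library sizes and the union of exons. Paralog ratios are log2 ratios of counts per exonic base, compared by exact two-sided permutation tests. The settings varied were the scaling (RLE size factors, or library size alone), the filter, the tool (DESeq2 1.42.0), the technical replicates (a alone, or without the conflicting labels), single cultures, a replicate block, the groups in the fit, and an offset for length and GC content without and with the block. Those for the pathway lists were added after seeing the data. In a simulation of the cytoplasmic comparison, edgeR recovered 54% of the genes given a log2 change of 1 and 93% of those given 2, and 20% and 75% in that of the translational index. Named pathway genes were up to 3 per list and direction with the largest cytoplasmic change past the limit, and all genes past it only in another comparison. Ccnd1 and Spry2 fall outside this rule and were named after their values were seen. The members and lists were chosen with earlier results of these data known.

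Both libraries of a culture were made from the same lysate (study methods), which pairs them. Between the fractions, deviations from the group mean had a correlation of 0.364 (culture 1), 0.452 (culture 2) and 0.645 (culture 4) in NT cells and of 0.0368, 0.199 and 0.230 in N6L cells (cultures 1 to 3). With totals of at least 19519911 counts, the least covered value was Braf in the polysomes of N6L culture 3, at 159 counts.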

Additional observations from a re-analysis of the deposited data

How the results depend on the processing

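For single genes of the set, 333 of 378 values under other settings and 185 of 210 with a culture left out kept their direction and their side of the limit; the cause of the changes below was not tested. Of 7 genes, Map2k2 alone was called in the cytoplasm, and the count was 2 with RLE size factors, DESeq2, technical replicate a alone, the conflicting labels left out and the length and GC offset (Nras as well, each time), 2 with the replicate block (Hras as well), 3 with only the groups compared and with offset and replicate block (both Ras genes), and 0 to 1 with a culture left out. In polysomes it was 1 with DESeq2 (Nras) and the offset (Map2k2), 2 with offset and replicate block, and 0 to 1 with a culture left out. Between polysomes and cytoplasm it was 2 in NT cells with offset and replicate block (Nras and Hras), and 0 to 4 in N6L-treated cells with a culture left out.

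Signs of small changes turned. With library size alone, which took the share of higher genes among all calls from 51.2% to 65.5% in the cytoplasm and from 47.3% to 36.1% between polysomes and cytoplasm with N6L, this held for Mapk3 in the cytoplasm (0.068), Nras between the fractions (-0.0048 in NT, -0.078 with N6L) and Map2k1 between the fractions with N6L (-0.060). With technical replicate a alone the translational index of Nras was 0.090. With the offset the cytoplasmic change was -0.11 for Araf, -0.15 for Braf and 0.24 for Mapk3 (-0.28, -0.086 and 0.23 with offset and replicate block), the difference between fractions 0.038 for Braf in NT and -0.11 for Map2k1 with N6L (0.038 and -0.12), and the index of Nras 0.24 (0.23); Map2k1 in polysomes was -0.043 with offset and replicate block. With a culture left out, Braf ranged from -0.68 to 0.044 and Hras from -0.37 to 0.096 in polysomes, Map2k1 from -0.036 to 0.33 in the cytoplasm and its index from -0.19 to 0.047, Nras from -0.012 to 0.14 (NT) and -0.034 to 0.11 (N6L) between the fractions and its index from -0.10 to 0.066, and the Nras/Hras difference from -0.041 to 0.30 in the cytoplasm and -0.50 to 0.027 in polysomes.

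The count of all genes called in polysomes (1343) was 2034 with DESeq2, 895 with technical replicate a alone, 328 with only the groups compared, 2778 with the offset and 2902 with offset and replicate block. That between the fractions in NT cells (29) was 647 with no filter, 273 with DESeq2, 18 with technical replicate a alone, 139 with only the groups compared, 48 with the offset, 203 with the replicate block and 753 with both; in N6L-treated cells (5415) it was 2983 with the offset. The index had 114 calls with no filter. Leaving out a culture gave 1295 to 4042 calls in the cytoplasm, 146 to 1579 in polysomes, 0 to 335 and 1153 to 5861 between the fractions in NT and N6L-treated cells, and 0 to 1 for the index. The count fell by more than 1.5 times without NT culture 1, NT culture 4 or N6L culture 2 (2253, 2173 and 1295 in the cytoplasm, 203, 623 and 146 in polysomes), and between the fractions in N6L-treated cells without N6L culture 2 or 3 (1153 and 1653). In NT cells it was 2, 3 and 0 without NT culture 1, 2 or 4, and leaving out N6L culture 2 or 3 gave 15 and 335. Of the 67 pathway genes, 14 were called in polysomes with the offset, 2 between the fractions in NT cells with DESeq2 or without N6L replicate 3 and 1 with the offset, and 17 in N6L-treated cells with the offset, against 13 without N6L replicate 3.

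The replicate block made the culture a term between the fractions, where it called Araf with N6L as well and changed no other call of the set. Between treatments the samples share only a number (deviations of cultures numbered 1 correlated by 0.228 and 0.296 in cytoplasm and polysomes, those numbered 2 by 0.0455 and 0.00756); there the block called Hras in the cytoplasm (-0.48, edgeR adjusted p = 0.0471) and gave -0.012 for Map2k1 in polysomes.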
